A study of Mus musculus with 6 samples.

Results

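The neuronal calcium-binding proteins of the postnatal day 7 (P7) mouse retina are described here through 10 genes: *Scgn*, *Cabp1*, *Cabp2*, *Cabp4*, *Cabp5*, *Calb1*, *Calb2*, *Pvalb*, *Ncald*, and *Hpca*. They were chosen by gene symbol as EF-hand genes that mark subtypes of retinal neurons, and all 10 were found among the 21744 genes of the deposited table. The table holds RNA-seq of whole retina from 3 control mice and 3 mice labelled *Lhx4*-null, 1 library per mouse, all at P7 and on a mixed background of C57BL/6J and 129S6. In the study, *Lhx4* null mice carry a tdTomato knock-in allele over a loxP allele of *Lhx4*, a LIM-homeodomain transcription factor gene, and *Six3-Cre*, which drives recombination in the developing retina. Which of the study's control genotypes gave the 3 control libraries is not stated in the sources used here. Expression is in FPKM, fragment counts scaled to transcript length and sequencing depth. *Lhx4* itself was not lower under the label. Control replicates 1, 2, and 3 had 20.9, 23.8, and 19.1 FPKM. Replicates 1, 2, and 3 of the other group had more, 31.2, 30.3, and 29.0 FPKM (log2 fold change 0.51, adjusted p = 0.098 from limma). A value over the whole gene does not show whether the deleted part was read, so *Lhx4* does not check the label. *Bhlhe23*, whose RNA the study found ablated at P6 by in situ hybridization, did follow the label. Its values were 10.2, 13.0, and 10.6 FPKM in the controls and 0.814, 0.563, and 0.830 FPKM in the other group. Its log2 fold change was -3.78 (adjusted p = 1.71e-04 from limma). The study had reported its fall at P7 from these same libraries. The other group is named by its label throughout. As a check of the tissue, 12 rod genes, none at 0 in every library, summed to 3897 to 5533 FPKM.

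EF-hand proteins bind calcium through helix-loop-helix motifs. Some act as buffers that limit the rise of calcium in a neuron, as calbindin (*Calb1*), calretinin (*Calb2*), and parvalbumin (*Pvalb*) do. Others are sensors that change shape on binding calcium and then act on a target, among them the calmodulin-like CaBPs (*Cabp1*, *Cabp2*, *Cabp4*, *Cabp5*), the neuronal calcium sensors neurocalcin delta (*Ncald*) and hippocalcin (*Hpca*), and secretagogin (*Scgn*). In the retina they are known mostly as labels: secretagogin for cone bipolar cells (CBCs), CABP5 for rod bipolar cells (RBCs) and some CBC types, CABP4 for photoreceptor terminals, calbindin for horizontal cells, and calretinin for amacrine cells (ACs) and retinal ganglion cells (RGCs).

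All 10 genes passed the filter of a mean of at least 0.1 FPKM, as did 15200 genes in all, and limma was run on log2(FPKM + 0.1). Every fold change is on that log2 scale, where changes of low genes come out too small, and adjusted p-values are those of limma after Benjamini-Hochberg adjustment over all 15200 genes. From the steps of low values, the control libraries were the deeper ones: control replicates 1 and 2 had 95.7% and 76.9% of the depth of control replicate 3, and the libraries labelled *Lhx4*-null had 46.7% to 65.9% of it, so that depth and group cannot be told apart. For 2 groups of 3, the smallest two-sided p of an exact permutation test is 0.1. Because the retina was sequenced whole, fewer cells of a type and less RNA per cell cannot be told apart in any of these values.

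The 10 genes spanned a wide range of levels. In the control libraries, *Calb2* was highest at 95.03 ± 7.92 FPKM (mean ± SD, n = 3), followed by *Hpca* at 45.6 ± 4.0, *Cabp1* at 45.3 ± 1.1, *Ncald* at 26.9 ± 0.94, *Scgn* at 21.9 ± 3.3, *Cabp5* at 20.1 ± 5.0, *Cabp4* at 18.2 ± 3.8, *Calb1* at 5.02 ± 0.35, *Cabp2* at 3.08 ± 0.42, and *Pvalb* at 0.429 ± 0.144 FPKM. *Hpca* and *Cabp1* overlapped in this order, as did *Scgn* with *Cabp5* and *Cabp5* with *Cabp4*, whereas all other neighbours in the order were separated in all 3 controls. Under the *Lhx4*-null label, *Scgn* lay below every value of *Cabp5*, and *Calb1* and *Cabp2* overlapped. By mean FPKM over the 6 libraries, *Calb2* stood at or above 96.2% of the genes tested and *Pvalb* at or above 7.56% of them.

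**Figure D1:**
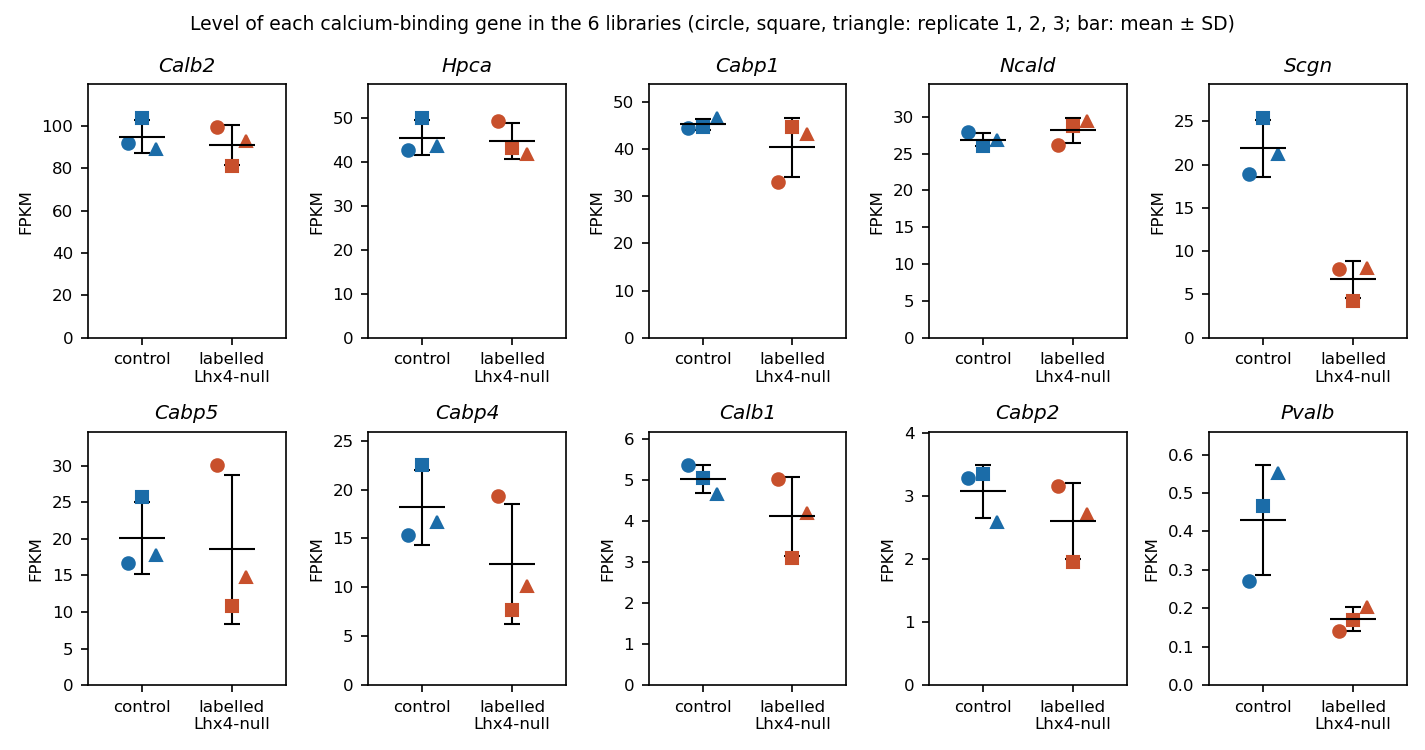
FPKM of the 10 calcium-binding genes in each library, ordered by control level; the vertical axes start at 0 and differ between panels. Circles, squares, and triangles are replicates 1, 2, and 3 of the control libraries (blue) and the libraries labelled *Lhx4*-null (red), and bars are mean ± SD (n = 3). The groups are separate for *Scgn* (18.9 to 25.4 against 4.23 to 8.06 FPKM) and for *Pvalb* (0.270 to 0.551 against 0.140 to 0.202 FPKM), and overlap for the other 8 genes.

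One gene of the 10, *Scgn*, passed an adjusted p under 0.05, and it was lower in the libraries labelled *Lhx4*-null. Over all genes tested, 0.138% were lower at this threshold (21 of 15200), 0.0855% were higher, and 0.224% passed in either direction, whereas 0 members were higher. Of the 10 genes, 9 had a negative fold change and 1 a positive one, with a median log2 fold change of -0.23. The median was -0.43 and -0.092 when *Lhx4*-null replicates 1 and 2, in turn, were left out, and leaving out replicate 2 of that group also turned *Cabp5* and *Calb2* positive. Over all genes tested, 7096 fold changes were negative and 8104 positive, with a median of 0.01. At an unadjusted p under 0.05, 2 members were lower, *Scgn* and *Pvalb*, where 3.55% of all genes tested were, and 0 members were higher, where 4.6% of all genes were (8.15% in either direction). The same 2 members were lower without overlap of the groups, as were 6.13% of all genes tested. Higher without overlap were 0 members and 8.1% of all genes, and 14.2% did not overlap in either direction.

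**Figure D2:**
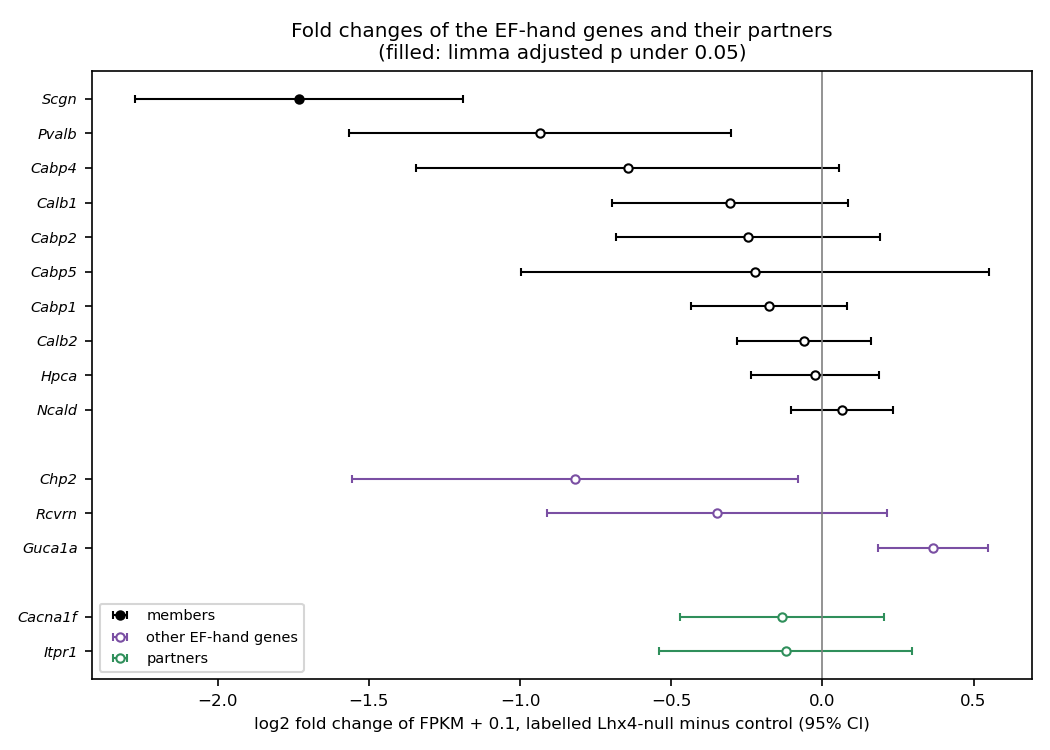
Log2 fold change of FPKM + 0.1, labelled *Lhx4*-null minus control, with its 95% confidence interval from limma (n = 3 against 3) for the 10 members and for the other EF-hand genes (*Chp2*, *Rcvrn*, and *Guca1a*) and partners (*Cacna1f* and *Itpr1*) described in the text; filled points have an adjusted p under 0.05. *Scgn*, at -1.73, is the only filled point, and the intervals of *Pvalb*, *Chp2*, and *Guca1a* also leave out 0.

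*Scgn* encodes secretagogin, a calcium sensor with links to vesicle release. It lies on chromosome 13 of GRCm38 (chr13:23953456-23991214, minus strand, GENCODE vM21). It was at 18.9, 25.4, and 21.3 FPKM for control replicates 1, 2, and 3, against 7.89, 4.23, and 8.06 FPKM for *Lhx4*-null replicates 1, 2, and 3. The groups were well apart, and replicate 2 was the extreme library of each, highest among the controls and lowest among the others. On the log2 scale this was -1.73 (limma, standard error 0.24, adjusted p = 0.035), or 3.32-fold lower (95% confidence interval 2.28 to 4.84). By p-value *Scgn* ranked 31 of the 15200 genes tested, and by fold change 18 from the most lowered. The study had itself reported *Scgn* as significantly lowered in the *Lhx4* null retina, both at P6 and at P7. Its P7 result came from these same libraries, so the call here is not independent of it. Its P6 libraries were a separate set and were not used here.

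The size of the fall of *Scgn* was steadier than its call. Leaving out *Lhx4*-null replicate 2, the lowest library, gave a log2 fold change of -1.43 with a smaller standard error of 0.13 and an adjusted p of 0.023 (limma). Leaving out any other library gave -1.62 to -1.89 with adjusted p-values above 0.05 (limma): 0.079, 0.14, and 0.14 without control replicates 1, 2, and 3, and 0.052 and 0.075 without *Lhx4*-null replicates 1 and 3. No upper bound of the 15 confidence intervals was above -0.998, the value without control replicate 2.

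**Figure D3:**
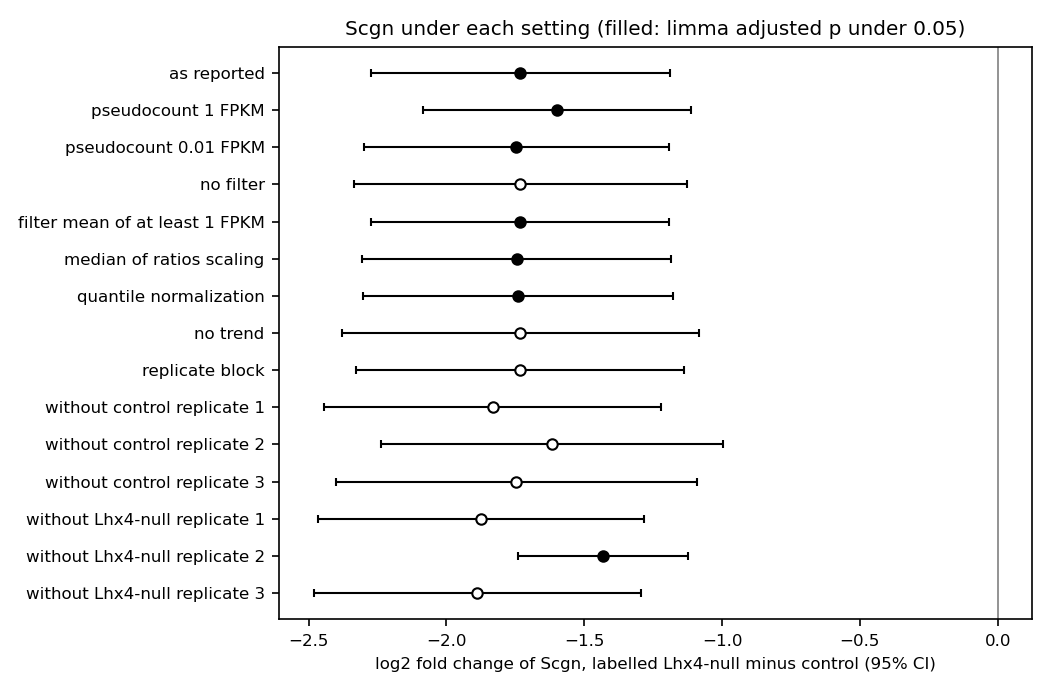
Log2 fold change of *Scgn*, labelled *Lhx4*-null minus control, with its 95% confidence interval under the reported setting and each of 14 alternatives; filled points have a limma adjusted p under 0.05. Every estimate lies between -1.89 and -1.43, and the filled points are the reported setting and 6 alternatives.

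The stretch before the start of *Scgn* is shown beside that of *Cabp5*, because both proteins label bipolar cells while only the first gene passed the test. Sequences are from RefSeq on GRCm38.p6, 5′ to 3′ on the strand of the gene. Each ends at the last base before the annotated GENCODE gene, chr13:23991215-23991464 (minus strand) for *Scgn* and chr7:13397905-13398131 (plus strand) for *Cabp5*. Capitals mark TAATCC, the core of sites bound by the homeodomain factors CRX and OTX2.
Scgn: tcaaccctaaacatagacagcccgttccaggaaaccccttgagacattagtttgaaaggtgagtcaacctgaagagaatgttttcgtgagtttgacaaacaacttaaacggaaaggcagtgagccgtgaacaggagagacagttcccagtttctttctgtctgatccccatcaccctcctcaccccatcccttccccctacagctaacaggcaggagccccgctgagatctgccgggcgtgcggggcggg
Cabp5: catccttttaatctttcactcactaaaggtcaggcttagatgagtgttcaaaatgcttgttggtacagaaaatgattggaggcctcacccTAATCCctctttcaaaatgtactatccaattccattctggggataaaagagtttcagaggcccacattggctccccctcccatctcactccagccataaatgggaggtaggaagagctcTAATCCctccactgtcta

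The 250 bases before each RefSeq start were searched on both strands for TAATCC and for TAATTA, a core bound by many homeodomain factors of the LIM class; TAATTA is its own reverse complement, and no match of one motif overlapped a match of the other. TAATCC occurs in 6.25% and TAATTA in 4.84% of 32851 such stretches over all genes. RefSeq starts were matched for 6 members (*Scgn*, *Cabp1*, *Cabp2*, *Cabp5*, *Pvalb*, and *Hpca*), 11 starts in all; *Cabp4*, *Calb1*, *Calb2*, and *Ncald* were not matched. The *Cabp5* stretch holds TAATCC at 2 places, with first bases at positions -160 and -41 from the RefSeq start, which lies within the GENCODE gene. TAATCC also occurs before 1 of the starts of *Cabp2*, at 2 places, and 1 of the starts of *Hpca*. Both of these stretches lie within the annotated GENCODE gene, and the sequence after that *Hpca* start was not found in its GENCODE transcripts. TAATTA occurs before 0 of the 11 starts, and the *Scgn* stretch holds neither motif. These are matches of letters and not measured sites.

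*Cabp5* encodes a calmodulin-like sensor found in RBCs and in some CBCs (chr7:13398132-13408887, plus strand). It was at 16.8, 25.8, and 17.8 FPKM for control replicates 1, 2, and 3, against 30.2, 10.8, and 14.8 FPKM for *Lhx4*-null replicates 1, 2, and 3. The highest and the lowest of the 6 values both came from libraries labelled *Lhx4*-null, so the groups overlapped entirely. The log2 fold change was -0.22, with a 95% confidence interval from -0.997 to 0.55 (adjusted p = 0.90 from limma). A fall as large as that of *Scgn* lies outside this interval. Without *Lhx4*-null replicate 1 the log2 fold change of *Cabp5* was -0.64 (unadjusted p = 0.016, adjusted p = 0.28 from limma), and without *Lhx4*-null replicate 2 it was 0.10.

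The difference between *Scgn* and *Cabp5* was then taken within each library, as log2(FPKM + 0.1) of the first minus that of the second. It was 0.17, -0.02, and 0.25 in the control libraries and -1.92, -1.34, and -0.87 in the libraries labelled *Lhx4*-null. The groups did not overlap, and the mean moved by -1.51 (two-sided exact permutation test, p = 0.1, or 0.15 adjusted over the 9 pairs of genes compared, which were picked after their values were seen). Against *Isl1*, a gene of ON-bipolar cells, *Scgn* moved by -1.03, also without overlap (exact permutation test, two-sided p = 0.1). Against *Grm6*, the glutamate receptor gene of ON-bipolar cells, it moved by -0.24 with overlap (exact permutation test, two-sided p = 0.5). Of 28 bipolar marker genes, none of them a member, 25 had a negative fold change and 11 were lower at an adjusted p under 0.05 (limma), with a median log2 fold change of -1.01. Their summed level was 1129 to 1325 FPKM among the controls, against 866 to 944 FPKM under the *Lhx4*-null label, and none was at 0 in every library. This list holds genes that the study had named as lowered in these same libraries, so its direction is not independent evidence.

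*Cabp4* encodes the sensor that tunes the L-type calcium channel of photoreceptor terminals, and lies on chromosome 19 (chr19:4135423-4144033, minus strand), 48.1 kb from *Cabp2*. Its values were 15.4, 22.5, and 16.7 FPKM for control replicates 1, 2, and 3, against 19.3, 7.63, and 10.2 FPKM for *Lhx4*-null replicates 1, 2, and 3. As for *Cabp5*, control replicate 2 was the highest control library and *Lhx4*-null replicate 1 stood well above the other two of its group. The log2 fold change was -0.64, with a 95% confidence interval from -1.34 to 0.06 (adjusted p = 0.64 from limma). Without *Lhx4*-null replicate 1 it was -1.02 (unadjusted p = 7.663e-04, adjusted p = 0.12 from limma), and without *Lhx4*-null replicate 2 it was -0.35.

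Much the same order of libraries appeared in *Rcvrn*, the gene for the photoreceptor calcium sensor recoverin. Recoverin is not a label of photoreceptors alone. The study used it as the marker of type 2 CBCs, and counted fewer of these cells in the adult *Lhx4* null retina. *Rcvrn* was at 148, 224, and 157 FPKM among the controls, against 201, 105, and 119 FPKM under the *Lhx4*-null label (limma, log2 fold change -0.35, adjusted p = 0.73, -0.63 to -0.16 with 1 library left out). Within a library, *Cabp5* minus *Rcvrn* spanned only 0.53 on the log2 scale over all 6 libraries, and moved by 0.13 between groups (exact permutation test, two-sided p = 0.6). A list of 12 rod genes had the same highest and lowest library in each group as *Rcvrn* except that control replicates 1 and 3 changed places: its summed level was 5533 FPKM in control replicate 2 against 4769 and 4808 FPKM in the other control libraries, and 5198, 3897, and 4157 FPKM in *Lhx4*-null replicates 1, 2, and 3. Of the 12 rod genes, 11 had a negative fold change and 0 passed an adjusted p under 0.05 (limma; 0 also at an unadjusted p under 0.05). The part of the rod genes in the values of *Cabp4* and *Cabp5* was not tested.

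*Cabp4* and *Cabp5* were also set against each other within a library. *Cabp4* minus *Cabp5* on the log2(FPKM + 0.1) scale was -0.13, -0.19, and -0.09 in the control libraries and -0.64, -0.50, and -0.53 in the libraries labelled *Lhx4*-null. The spread within a group was small (SD 0.053 and 0.072, n = 3 each) and the groups did not overlap, with a shift of -0.42. The exact permutation test gave a two-sided p of 0.1, or 0.15 adjusted over the 9 pairs. Since 0.1 is the smallest p that 3 against 3 libraries allow, this test could not reach 0.05 and does not decide the difference. *Cabp4* minus *Rcvrn* shifted by -0.29, also without overlap (exact permutation test, two-sided p = 0.1). *Cacna1f*, the gene for the channel that CABP4 tunes, was at 46.9, 62.6, and 43.6 FPKM among the controls, against 53.5, 42.4, and 42.6 FPKM under the *Lhx4*-null label (log2 fold change -0.13, adjusted p = 0.83 from limma), and *Cabp4* minus *Cacna1f* overlapped between the groups (exact permutation test, two-sided p = 0.3). Adjusted over the 9 pairs, every p of 0.1 became 0.15 and the others were 0.39 to 0.6.

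**Figure D4:**
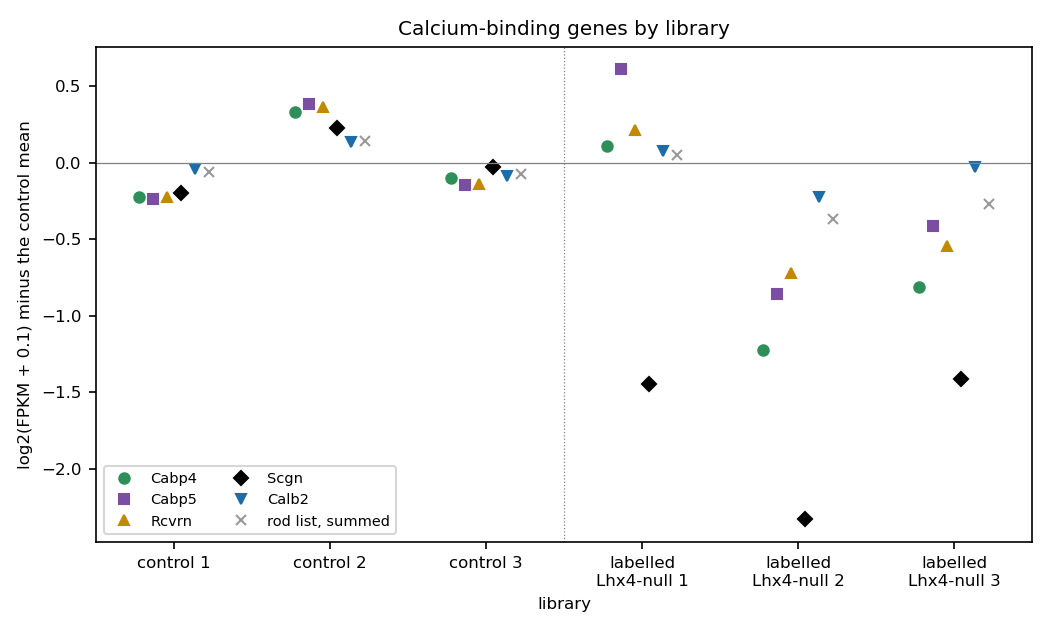
Log2(FPKM + 0.1) minus the mean of the 3 control libraries, for *Cabp4*, *Cabp5*, *Rcvrn*, *Scgn*, *Calb2*, and the summed FPKM of 12 rod genes in each of the 6 libraries. *Cabp4*, *Cabp5*, *Rcvrn*, and the rod genes are high in control replicate 2 and *Lhx4*-null replicate 1 and low in *Lhx4*-null replicates 2 and 3, while *Scgn* is low in all 3 libraries labelled *Lhx4*-null.

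For the remaining CaBP genes, *Cabp1* and *Cabp2*, the interval of the fold change held 0. *Cabp1*, whose products include the postsynaptic protein caldendrin and a regulator of the inositol trisphosphate receptor, is on chromosome 5 (chr5:115168689-115194381, minus strand). It was at 44.5, 44.8, and 46.6 FPKM among the controls, against 33.1, 44.8, and 43.2 FPKM under the *Lhx4*-null label. Only *Lhx4*-null replicate 1 stood apart, and it was the low one. The log2 fold change was -0.18 (95% confidence interval -0.44 to 0.08, adjusted p = 0.71 from limma), or -0.041 without that library. *Cabp2*, which also modulates voltage-gated calcium channels (chr19:4081578-4087340, plus strand), was at 3.28, 3.36, and 2.59 FPKM for the controls and 3.16, 1.96, and 2.71 FPKM. Its groups overlapped, with a log2 fold change of -0.25 (95% confidence interval -0.68 to 0.19, adjusted p = 0.75 from limma), or -0.39 and -0.062 when *Lhx4*-null replicates 1 and 2, in turn, were left out. *Itpr1*, the receptor gene linked to *Cabp1*, was at 1.51, 1.62, and 1.503 FPKM for the controls and 1.82, 1.14, and 1.35 FPKM (log2 fold change -0.12, adjusted p = 0.90 from limma).

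Among the buffers, *Pvalb* was the lowest in level. It lies on chromosome 15 (chr15:78191114-78206400, minus strand). Its values were 0.270, 0.467, and 0.551 FPKM for control replicates 1, 2, and 3, against 0.140, 0.170, and 0.202 FPKM for *Lhx4*-null replicates 1, 2, and 3. Every control library was above every other library. Multiplied by the relative depth, the 6 values came within 2.66% of whole multiples of a single step of 0.0325 FPKM: 8, 11, and 17 steps in the control libraries and 2, 3, and 4 in the others. The step kept was the largest found that put every value within 0.15 steps of a whole number. Closeness to whole multiples was thus in part selected by the search. If whole fragments were counted, the step is what 1 fragment would be worth. This reading was added after the values were seen. The log2 fold change was -0.93 (standard error 0.28, unadjusted p = 0.0091, adjusted p = 0.43 from limma), so the difference did not pass over all genes tested. The fold change moved with the pseudocount, to -0.28 at 1 FPKM and -1.24 at 0.01 FPKM.

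*Calb1* and *Calb2* overlapped between the groups. *Calb1*, a marker of horizontal cells (chr4:15881264-15908064, plus strand), was at 5.36, 5.04, and 4.67 FPKM among the controls, against 5.03, 3.104, and 4.201 FPKM under the *Lhx4*-null label. Its log2 fold change was -0.31 (95% confidence interval -0.70 to 0.08, adjusted p = 0.69 from limma), or -0.46 and -0.12 when *Lhx4*-null replicates 1 and 2, in turn, were left out. By immunolabeling, the study found no significant change in the number of calbindin-positive horizontal cells from P6 to P10. Of 6 other horizontal cell genes, 1 had a negative and 5 a positive fold change, and their summed level was 94.0 to 97.4 FPKM among the controls, against 83.8 to 98.8 FPKM under the *Lhx4*-null label. Most of this sum was *Sept4*, the gene with the negative fold change (log2 -0.12). *Sept4* was at 84.5, 83.1, and 87.8 FPKM among the controls, against 87.3, 70.4, and 77.9 FPKM under the *Lhx4*-null label. *Calb2*, on chromosome 8 (chr8:110137502-110168210, minus strand), was at 92.0, 104, and 89.1 FPKM for the controls and 99.8, 81.1, and 92.8 FPKM. Its log2 fold change was -0.06 (95% confidence interval -0.28 to 0.16, adjusted p = 0.90 from limma). *Calb2* labels ACs and RGCs. Of 21 AC genes, 16 had a positive fold change and 0 passed an adjusted p under 0.05 (limma; 6 higher and 1 lower at an unadjusted p under 0.05), with a summed level of 600.4 to 652 FPKM among the controls, against 655 to 734 FPKM under the *Lhx4*-null label. Of 13 RGC genes, 8 had a positive fold change, with a median log2 fold change of 0.05. Summed levels of other classes were also higher under the *Lhx4*-null label without overlap: 896 to 949 FPKM among the controls against 1064 to 1084 FPKM for 10 Müller glia genes, 719 to 863 against 931 to 1056 FPKM for 11 cone genes, and 29.2 to 53.1 against 54.6 to 92.4 FPKM for 10 genes of the pigment epithelium. Such sums are weighed toward the most abundant genes of a list and do not show that a class rose as a whole. Per the study's methods, the pigment epithelium was taken off when the retinas were isolated. How much of it remained in each library was not tested. At an unadjusted p under 0.05 (limma), 3 Müller glia, 5 cone, and 5 pigment epithelium genes were higher, where 4.6% of all genes tested were, and 1 cone gene was lower. The cone genes did not move together: 9 had a positive fold change, 1 of them past an adjusted p under 0.05 (*Opn1sw*, log2 fold change 0.88, adjusted p = 0.031 from limma), and 2 a negative one, among them *Arr3* without overlap of the groups (-1.27, adjusted p = 0.077 from limma). Both were named after their values were seen. The part of these classes in the values of the members was not tested.

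For the neuronal calcium sensors *Hpca* and *Ncald*, as for *Calb2*, the fold change was small and its interval held 0. Both encode membrane-switching sensors of the recoverin family. *Hpca* (chr4:129111570-129122036, minus strand) was at 42.9, 50.2, and 43.8 FPKM among the controls, against 49.4, 43.3, and 41.9 FPKM under the *Lhx4*-null label. The fold change was -0.02 on the log2 scale (95% confidence interval -0.24 to 0.19, adjusted p = 0.96 from limma). *Ncald* (chr15:37366175-37792570, minus strand) was at 27.9, 26.0, and 26.8 FPKM for the controls and 26.2, 28.8, and 29.5 FPKM. It was the only member with a positive log2 fold change, 0.06, and it had the narrowest interval of the 10, from -0.10 to 0.23 (adjusted p = 0.85 from limma). With 1 library left out its fold change stayed between 0.030 and 0.12. Of the exon bases of *Ncald*, 7.38% lie in another annotated gene, against 3.72% for *Cabp4*, 1.95% for *Hpca*, and 0 for the other members, and whether fragments were counted by strand is not stated.

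**Figure D5:**
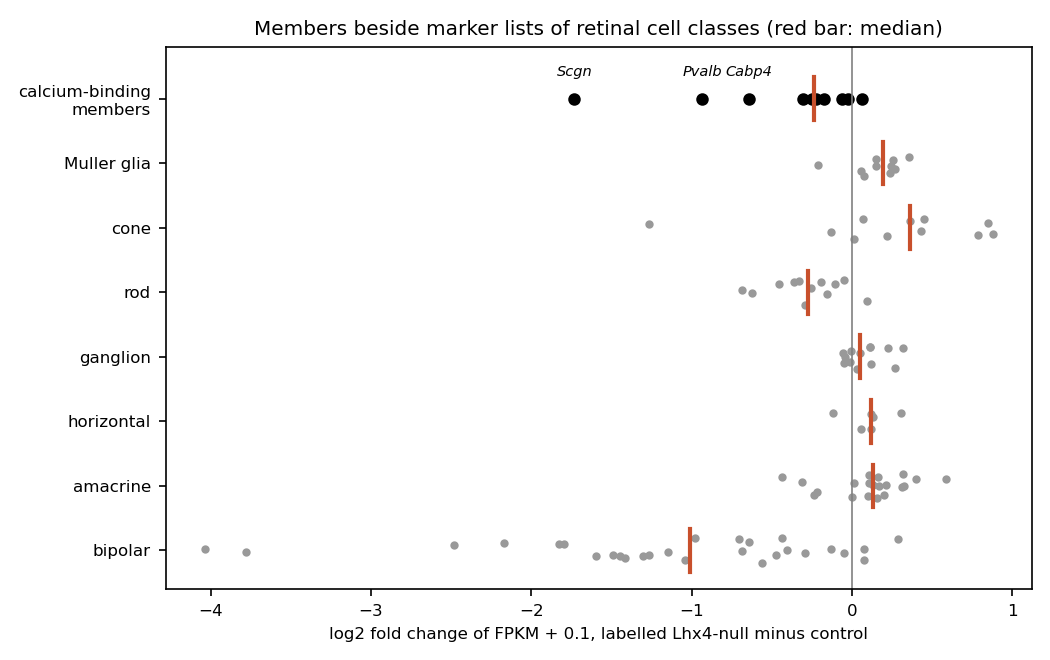
Log2 fold change of FPKM + 0.1, labelled *Lhx4*-null minus control, for the 10 members (black) and for marker genes of 7 retinal cell classes (grey), with the median of each list as a red bar; the vertical scatter is only for display. The bipolar list has a median of -1.01 and the members one of -0.23 (-0.43 to -0.092 with 1 library left out), with *Scgn* at -1.73 apart from the other members.

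In the wider EF-hand family the fold changes lay on both sides of 0. Of 28 other EF-hand genes listed, 27 were tested, 11 with a negative and 16 with a positive fold change and a median of 0.01 on the log2 scale. In limma, 0 of them passed an adjusted p under 0.05, where 0.224% of all genes tested did. An unadjusted p under 0.05 was reached by 2 of them, 1 in each direction, where 8.15% of all genes tested reached it. Without overlap of the groups were 1 lower and 1 higher gene of the list, where 14.2% of all genes tested did not overlap. The counts are thus not read as a result about the family. The higher at an unadjusted p under 0.05 was *Guca1a*, which encodes GCAP1, the calcium sensor of guanylate cyclase in photoreceptor outer segments. It was at 34.4, 31.4, and 33.9 FPKM among the controls, against 45.5, 39.2, and 43.9 FPKM under the *Lhx4*-null label, without overlap (log2 fold change 0.36, 95% confidence interval 0.18 to 0.55, adjusted p = 0.21 from limma). Its fold change lay on the opposite side of 0 from those of *Rcvrn* and *Cabp4*. The lower at that threshold was *Chp2*, a calcineurin-like protein gene. It was at 0.702, 0.638, and 0.754 FPKM among the controls, against 0.657, 0.284, and 0.216 FPKM under the *Lhx4*-null label, with overlap (log2 fold change -0.82, adjusted p = 0.59 from limma, -1.19 to -0.56 with 1 library left out). Of 11 channels, receptors, and other partners, 5 had a negative and 6 a positive fold change, and 0 had an unadjusted or adjusted p under 0.05 (limma).

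The genes whose level followed *Scgn* most closely over the 6 libraries, among 12476 genes whose mean reached 1 FPKM, were *Amph* (Pearson r = 0.993), *Qpct* (r = 0.989), and *Cog4* (r = 0.987). *Amph* encodes amphiphysin, a protein of synaptic vesicle endocytosis. Its log2 fold change was smaller than that of *Scgn*, at -0.25, against -1.16 for *Qpct* and -0.21 for *Cog4*. For *Cabp5* they were *Ppip5k1* (r = 0.997), *Ppm1n* (r = 0.992), and *Akap6* (r = 0.991), with log2 fold changes of -0.05, -0.03, and -0.10. These values of r describe likeness over 6 libraries that fall into 2 groups and share a range of depths, and are given with no test.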

How the data were processed

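RNA-seq of 3 control and 3 *Lhx4*-null P7 retinas, 1 library per mouse, was used. Per the study's methods, the authors aligned the read pairs by Tophat and quantified genes by Cufflinks. They deposited FPKM, 1 value for each gene and library (GRCm38 in the submitters' processing notes; annotation, program versions, and use of strand are not given in the sources used here). Groups and replicate numbers came from the sample labels, and 0 value columns were left unused.

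In limma 3.58.1 (R 4.3.3), genes whose mean FPKM reached 0.1 (15200 genes) were put on a log2(FPKM + 0.1) scale and compared by a linear model with a trended prior variance, and p-values were adjusted by Benjamini-Hochberg over all of them. All tests are two-sided. Differences within a library were compared by an exact permutation test over libraries. Relative depth came from the most frequent ratios of 5708 genes under 0.1 FPKM in every library, which closed to within 0.0895%. The fit and the depth were tested on simulated data. Figures were drawn with Python 3.11.15 and matplotlib 3.10.9. Gene positions are from GENCODE vM21, which may not be the authors' annotation.

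The members, gene lists, and tests were chosen with earlier results of these data known. The genes named were *Lhx4*, the members, listed EF-hand genes and partners with an unadjusted p under 0.05 plus *Cacna1f* and *Itpr1*, and the genes most like *Scgn* and *Cabp5*. *Rcvrn*, *Bhlhe23*, and the pairs of genes were picked after their values were seen. For a symbol listed more than once (6 in the table), the row with the highest mean was taken. Some of the genes and pairs compared are not reported here. The alternatives changed the pseudocount, filter, scaling, trend, replicate block, and libraries. The replicate numbers were checked for pairing by the deviations of libraries from their group means.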

Additional observations from a re-analysis of the deposited data

How the results depend on the processing

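Over 14 alternatives, *Scgn* had a negative log2 fold change in each (-1.89 to -1.43), with an adjusted p from limma of 0.023 to 0.15. It was called with a pseudocount of 1 or 0.01 FPKM, a filter of 1 FPKM, either scaling, and without *Lhx4*-null replicate 2. With no filter, with no trend, and with the replicate block, 0 of the 10 members were called, and 0 to 1 when a library was omitted. Over all genes tested, 34 genes were called (adjusted p under 0.05, limma), against 20 with no filter, 15 with the replicate block, and 15 to 31 with 1 library left out. The replicate numbers gave no sign of pairing: deviations of same-numbered libraries from their group means correlated at -0.13, -0.00020, and 0.16 across genes. The correlations furthest from 0 were between libraries of unlike number. Control replicate 2 had 0.24 with *Lhx4*-null replicate 1 and -0.24 with *Lhx4*-null replicate 3. With 3 libraries in a group, such values cannot exclude a pairing or a shared batch. The wider EF-hand list and the partners had 0 calls in every alternative. With 1 library left out, 3 members changed sign at least once. *Cabp5* ranged from -0.64 to 0.10 and was positive without *Lhx4*-null replicate 2 (0.10). *Calb2* ranged from -0.13 to 0.021 and was positive without control replicate 2 (0.0060) and *Lhx4*-null replicate 2 (0.021). *Hpca* ranged from -0.096 to 0.046 and was positive without control replicate 2 (0.046) and *Lhx4*-null replicate 3 (0.023). The scalings moved the sign of no member. The table holds no fragment counts, and low genes such as *Pvalb* are limited by depth.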
